A study of Mus musculus with 26 samples.

Results

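The Cyp2c cytochromes described here were 10 mouse genes, Cyp2c29, Cyp2c37, Cyp2c38, Cyp2c39, Cyp2c40, Cyp2c50, Cyp2c54, Cyp2c55, Cyp2c69 and Cyp2c70, out of 47643 genes in the count table. They were found by matching each row's Ensembl gene identifier, without its version, to these symbols, and each member had 1 row. Their RNA was followed through 26 bulk RNA-seq libraries of mouse liver and hepatocytes from a study titled for the induction of drug metabolism in cholestatic livers. The libraries formed 5 experiments, each with its own control.

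The first experiment used 8-week-old C57BL/6J wild type mice fed ad libitum and compared whole liver after corn oil (n = 2) with whole liver after TCPOBOP (n = 2), a synthetic compound that activates the constitutive androstane receptor (CAR) of the mouse. The labels gave 36 h for TCPOBOP in the sample titles and 6 h in the source names. The second compared whole liver of 12-week-old C57BL/6J wild type mice (n = 3) with that of Fxr-/- Shp-/- mice of the same age (n = 3), both fed ad libitum. These double knockouts lack FXR, the nuclear receptor for bile acids encoded by Nr1h4, and its target SHP, a repressor encoded by Nr0b2, and the labels describe no tissue restriction of the deletion. The third compared C3H/HeN mice of 8 to 10 weeks, whose genotype the labels did not give, at 0 h after sham operation (n = 3) and at 48 h after partial hepatectomy (n = 3), the surgical removal of part of the liver. The fourth compared hepatocytes of 16-week-old C57BL/6J wild type mice, fasted for 10 h, on chow (n = 2) or on a diet with 60% fat (n = 2). The last compared whole liver of fl/fl Fxr fl/fl Shp mice of 10 to 12 weeks, fasted for 8 to 10 h, on chow (n = 3) or on a cholic acid diet (n = 3), and the labels named no Cre for these mice. The strain, age, feeding and tissue differed between experiments, so levels were compared within an experiment. The labels did not say that replicates came from separate animals, so the p-values below measure the spread between these samples.

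Cyp2c enzymes are haem monooxygenases of the endoplasmic reticulum that receive electrons from NADPH through the reductase Por. In liver they oxidise drugs and steroids, and several convert arachidonic acid to epoxyeicosatrienoic acids or to hydroxylated fatty acids. CAR and the pregnane X receptor (PXR) are nuclear receptors that switch on many drug-metabolising genes, some Cyp2c genes among them, and Cyp2c70 stands apart as the mouse enzyme that makes muricholic acids from chenodeoxycholic acid.

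All 10 members lay in 1 cluster on chromosome 19 (GRCm38, chr19:39007019-40187333, 1180 kb), which held 14 annotated Cyp2c genes. From the lower coordinate the order was Cyp2c55, Cyp2c65, Cyp2c66, Cyp2c29, Cyp2c38, Cyp2c39, Cyp2c67, Cyp2c68, Cyp2c40, Cyp2c69, Cyp2c37, Cyp2c54, Cyp2c50 and Cyp2c70. Neighbours were close copies of each other. The coding sequences of Cyp2c37 and Cyp2c50 were 96.1% identical, those of Cyp2c50 and Cyp2c54 95.2%, those of Cyp2c38 and Cyp2c39 94.2%, and those of Cyp2c40 and Cyp2c69 92.5%. Cyp2c70 was the most distant, with 62.7% to 69.8% identity to the other members. Copies of this kind share reads. Of all 50-base windows of the annotated transcripts, 60.3% for Cyp2c40 and 54.3% for Cyp2c69 also occurred in another gene, against 30.1% for Cyp2c37, 25.7% for Cyp2c54, 18.3% for Cyp2c50, 1.13% for Cyp2c55 and 0% for Cyp2c70. At 100 bases the shares were 34.4% for Cyp2c40, 35.4% for Cyp2c69 and 7.59% or less for every other member. Levels of Cyp2c40 and Cyp2c69 are therefore uncertain, since reads from either gene, or from other copies, could be lost or moved between them. Exons of Cyp2c29 also overlapped the pseudogene Cyp2c53-ps, and those of Cyp2c55 overlapped Gm23800 on the opposite strand.

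The 250 bases before the start of 7 members are shown to set a pair whose levels rose and fell together below (Cyp2c40 and Cyp2c69) beside a pair of neighbours that parted (Cyp2c29 and Cyp2c38). They come from RefSeq (GRCm38.p6) and read 5′ to 3′ on the strand of the gene. Of the 10 members, 9 matched an entry, and Cyp2c54 did not. Cyp2c39 had a pair of entries with different starts, and what follows on motifs uses the first entry of each gene unless the other is named. Capitals mark matches to 4 short motifs, searched on both strands of the 250 bases before and 50 bases after each start. The motif of the HNF4 type was spelled CAAAGTNCA. The half-site that many nuclear receptors bind was spelled AGGTCA. The FOXA-type motif, named for the pioneer factors of liver, was spelled TGTTTAC. The TATA box, where the transcription machinery docks, was spelled TATAAA. A further motif, TTCNNNGAA (of the STAT type), had no match in the 9 members and was present in 8.3% of all 32851 promoters of this length. The first pair is Cyp2c40 and Cyp2c69, the next are Cyp2c50 and Cyp2c70, then Cyp2c29 and Cyp2c38, and last Cyp2c55.
Cyp2c40 (chr19:39812815-39813064, minus strand): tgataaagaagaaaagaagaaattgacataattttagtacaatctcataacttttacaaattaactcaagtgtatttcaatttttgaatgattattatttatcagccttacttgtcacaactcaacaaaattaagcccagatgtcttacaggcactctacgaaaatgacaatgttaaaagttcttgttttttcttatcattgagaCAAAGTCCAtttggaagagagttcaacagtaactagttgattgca
Cyp2c69 (chr19:39886770-39887019, minus strand): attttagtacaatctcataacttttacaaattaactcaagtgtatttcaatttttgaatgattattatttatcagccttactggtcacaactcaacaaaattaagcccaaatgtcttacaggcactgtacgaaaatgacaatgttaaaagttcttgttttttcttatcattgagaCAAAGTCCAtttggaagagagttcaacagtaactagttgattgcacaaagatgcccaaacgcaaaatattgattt
Cyp2c50 (chr19:40089429-40089678, plus strand): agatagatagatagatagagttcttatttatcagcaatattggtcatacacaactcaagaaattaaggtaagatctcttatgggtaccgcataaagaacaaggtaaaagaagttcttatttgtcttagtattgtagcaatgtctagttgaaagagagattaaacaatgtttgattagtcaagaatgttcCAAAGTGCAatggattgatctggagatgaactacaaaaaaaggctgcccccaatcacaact
Cyp2c70 (chr19:40187287-40187536, minus strand): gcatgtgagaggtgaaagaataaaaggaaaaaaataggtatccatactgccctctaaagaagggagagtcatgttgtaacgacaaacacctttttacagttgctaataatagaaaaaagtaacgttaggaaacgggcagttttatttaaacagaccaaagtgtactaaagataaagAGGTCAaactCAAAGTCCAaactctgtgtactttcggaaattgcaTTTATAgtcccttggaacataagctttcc
Cyp2c29 (chr19:39286835-39287084, plus strand): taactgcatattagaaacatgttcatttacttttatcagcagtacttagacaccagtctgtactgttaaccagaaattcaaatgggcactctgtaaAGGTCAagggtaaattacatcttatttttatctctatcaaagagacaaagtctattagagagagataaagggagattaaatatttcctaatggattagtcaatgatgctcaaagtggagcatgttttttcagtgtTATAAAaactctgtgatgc
Cyp2c38 (chr19:39463076-39463325, minus strand): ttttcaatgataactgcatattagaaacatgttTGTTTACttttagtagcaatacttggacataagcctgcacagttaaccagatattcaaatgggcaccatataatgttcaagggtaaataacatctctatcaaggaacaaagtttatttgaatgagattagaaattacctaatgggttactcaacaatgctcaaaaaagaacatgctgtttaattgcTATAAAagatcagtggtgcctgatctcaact
Cyp2c55 (chr19:39006769-39007018, plus strand): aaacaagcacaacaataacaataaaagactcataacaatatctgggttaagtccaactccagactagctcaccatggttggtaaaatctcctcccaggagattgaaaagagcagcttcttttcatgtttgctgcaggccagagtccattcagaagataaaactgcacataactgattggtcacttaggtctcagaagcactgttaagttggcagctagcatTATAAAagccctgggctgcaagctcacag

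The HNF4-type motif was present in 5 of the 9 members, Cyp2c37, Cyp2c40, Cyp2c50, Cyp2c69 and Cyp2c70, and in 1.41% of all promoters. It stood at -63, -45, -61, -75 and -64 relative to the start of each, in that order. In the first entries Cyp2c29 (at -154) and Cyp2c70 (at -74) held the half-site AGGTCA, as the other entry of Cyp2c39 did at -25 from its own start, and 16.3% of all promoters held it. In Cyp2c70 it lay 4 bases before the HNF4-type motif. The FOXA-type motif was found in Cyp2c38 and its neighbour Cyp2c39, at -217 and -204, and in 3.65% of all promoters. A TATAAA was present in 7 of the 9 members and in 13.6% of all promoters, and stood between -31 and -19 in Cyp2c29, Cyp2c38, Cyp2c55 and Cyp2c70. In Cyp2c39, Cyp2c69 and Cyp2c40 it stood at -3, 10 and 40, where positive values lie after the annotated start. The distances of the HNF4-type motif in Cyp2c40 and Cyp2c69 count from the same annotated starts. Over the whole 300-base window the promoters of Cyp2c37 and Cyp2c50 were 86.6% identical and those of Cyp2c40 and Cyp2c69 80.9%. These are matches of letters and were not tested for binding.

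Gene counts summed to between 13949059 and 70367874 per library. Levels are given as CPM, counts scaled to library size, on 1 scale for all 26 libraries. In the double knockouts Nr0b2 was 0.558, 1.09 and 1.59 CPM, against 14.3, 26.5 and 13.1 in wild type livers. Nr1h4 was 61.0, 52.3 and 55.3 CPM against 146, 151 and 113, and where the deletion lies in the gene was not tested. One library went against its label. Cyp2b10, the best known CAR target, was 3706 CPM in the liver whose library is labelled corn oil 1, beside 3430 and 2988 with TCPOBOP, and 9.94 in corn oil 2. The log2 levels of the corn oil pair correlated across genes at 0.947. In the chow-fed floxed livers, replicate 3 stood apart from replicates 1 and 2, with correlations of 0.939 and 0.943, and all other replicate pairs correlated at 0.966 or more. Results of the TCPOBOP and cholic acid experiments are given with and without these libraries. Alb, Apoa1 and the other hepatocyte markers were high in every group, and no hepatocyte marker was at 0. The share of table entries listed as not uniquely aligned was 43.2% to 44.1% in the wild type libraries of the knockout experiment and 25.5% to 26.9% in the double knockouts, against 16.6% to 25.1% in all others, and its part in the results was not tested.

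**Figure D1:**
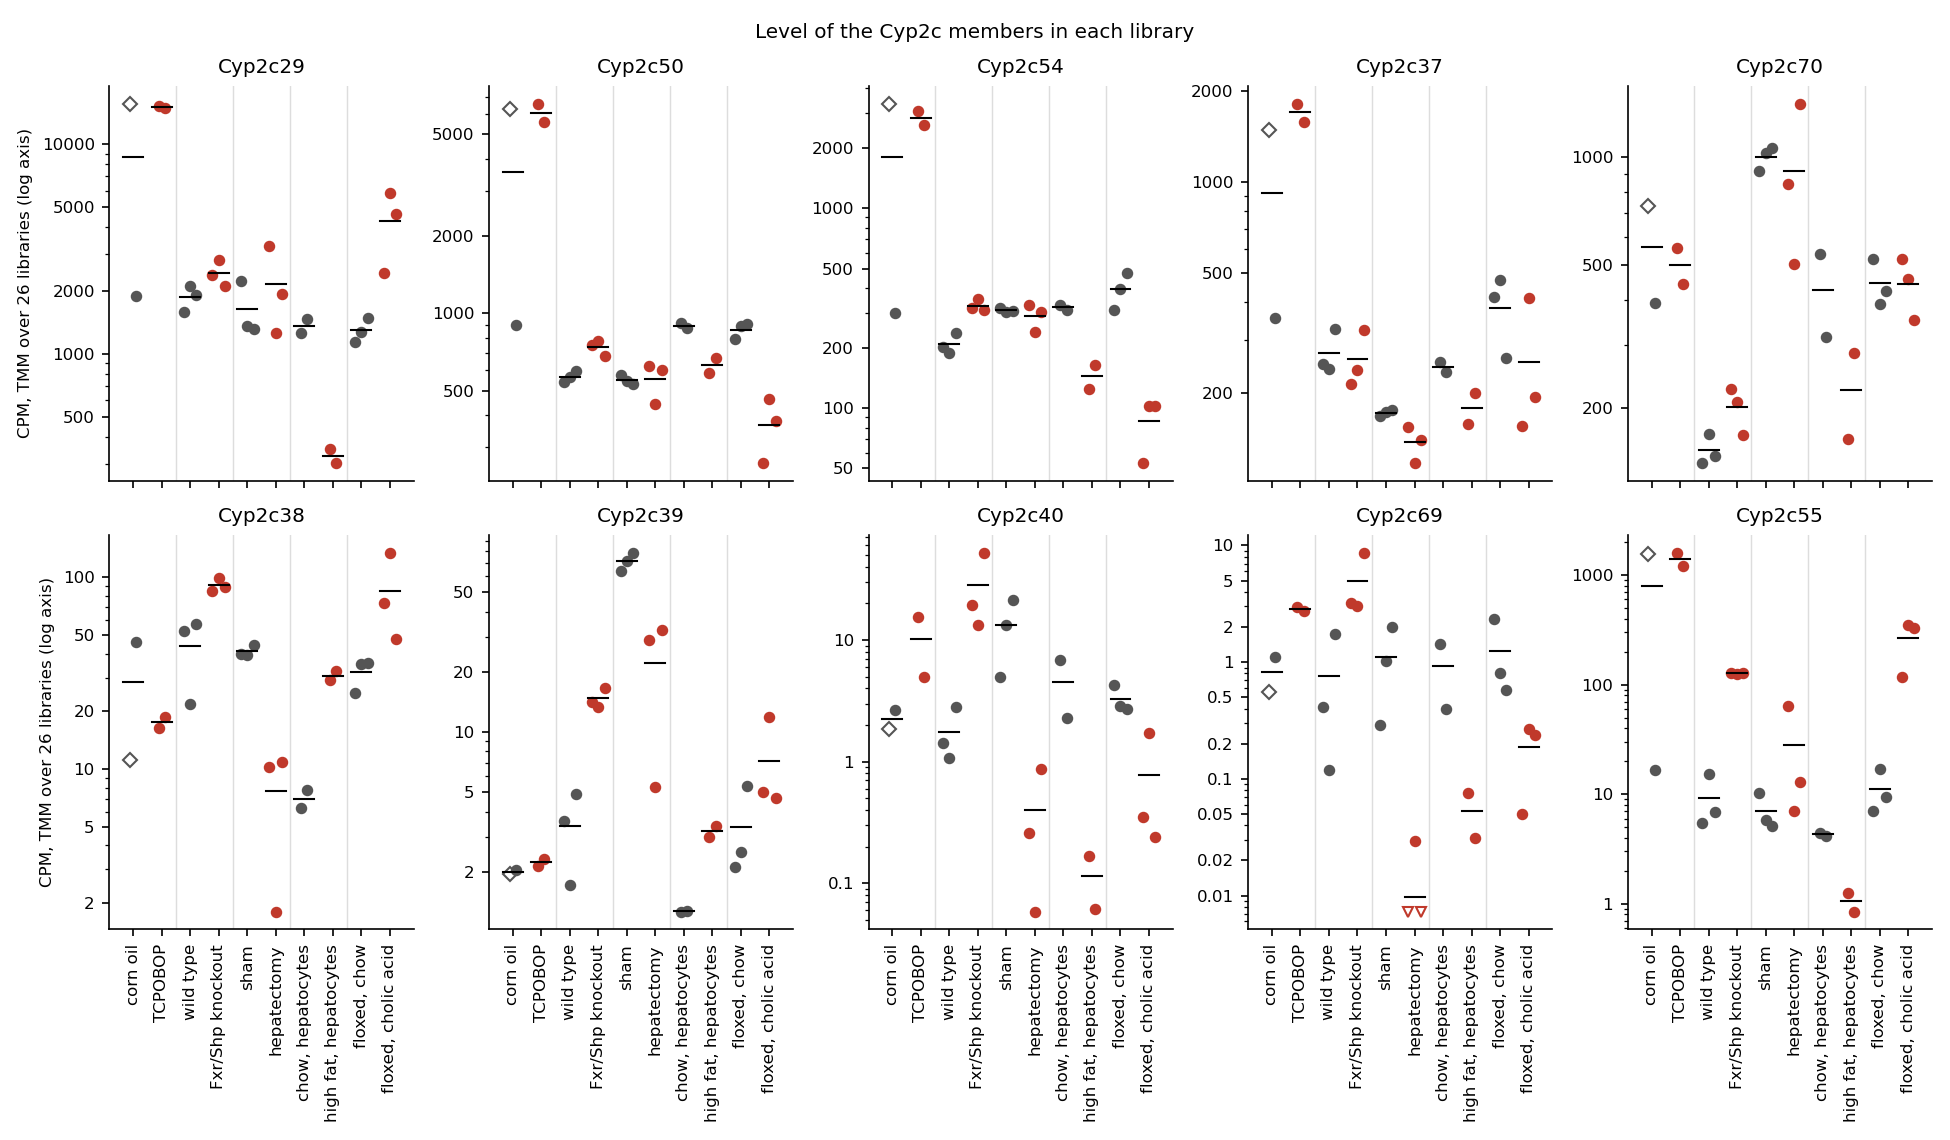
CPM of each Cyp2c member in every library on a log axis, 1 panel per gene and 1 column per group, with grey points for control libraries, red points for treated or knockout libraries and a black line at the group mean. The open diamond is the library labelled corn oil 1, and triangles are libraries with 0 counts, drawn below the smallest value. Cyp2c29 is high in all 10 groups and 15520 CPM in that library, and Cyp2c69 is at 0 counts in 2 hepatectomy libraries.

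Per kilobase of annotated exon, Cyp2c29, an arachidonic acid epoxygenase and the classic inducible mouse Cyp2c enzyme, had the highest mean level of the family in 9 of 10 groups. In wild type livers it stood at 610 ± 87.7 CPM per kb (SD, n = 3), followed by Cyp2c50 at 194 ± 9.58, Cyp2c37 at 149 ± 25.9, Cyp2c54 at 117 ± 14.1 and Cyp2c70 at 76.7 ± 7.46. The lower members of that group were Cyp2c38 at 15.3 ± 6.72, Cyp2c55 at 4.63 ± 2.69, Cyp2c39 at 1.87 ± 0.874, Cyp2c40 at 0.866 ± 0.445 and Cyp2c69 at 0.443 ± 0.507 CPM per kb. Cyp2c37 and Cyp2c54 lay within their spread of each other, as did Cyp2c39 and Cyp2c40, and Cyp2c40 and Cyp2c69. The family thus split into 5 members above 70 CPM per kb and 5 below 20 in this group. The order was not the same everywhere. In C3H/HeN sham livers Cyp2c70 was second at 507 ± 38.9 CPM per kb and not separated from Cyp2c29 at 534 ± 170, and Cyp2c39 was sixth at 39.3 ± 4.09. This depended on the length used. Per kilobase of coding sequence the sham libraries held 895 to 1520 CPM of Cyp2c29 and 625 to 726 of Cyp2c70. In hepatocytes from the high fat diet Cyp2c50 came first at 215 ± 20.7 CPM per kb, ahead of Cyp2c70 at 113 ± 43.5 and Cyp2c29 at 107 ± 11.3. Per kilobase of coding sequence Cyp2c29 came before Cyp2c70 there, at means of 223 and 153. Cyp2c69 was the lowest in 9 groups and Cyp2c39 in the TCPOBOP group.

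The summed level of the 10 members was 3124 ± 305 CPM in wild type livers, 3804 ± 458 in sham livers, 3266 ± 67.8 in chow hepatocytes and 3433 ± 197 in chow-fed floxed livers. It was 4220 ± 390 in the double knockouts, 4105 ± 1391 after hepatectomy, 1539 ± 173 on the high fat diet and 5819 ± 2087 on cholic acid. The TCPOBOP livers held 28870 and 26250 CPM, the library labelled corn oil 2 held 3904 and the library labelled corn oil 1 held 28890. The make-up of the sum moved most on cholic acid. Cyp2c29 took 35.3% to 41.3% of it in chow-fed floxed livers and 67.2% to 76.7% on cholic acid, while Cyp2c50 went from between 24.7% and 25.6% to between 5.96% and 7.23%, and Cyp2c54 from between 9.64% and 13.1% to between 1.32% and 1.7%. On the high fat diet the share of Cyp2c29 was 18.2% to 24.8%, against 38% to 45.5% on chow, and that of Cyp2c50 was 40.4% to 41.4%, against 27.2% to 27.6%. Shares are parts of a sum, so a share can rise while the level falls. On the high fat diet the level of Cyp2c50 itself fell (log2 change -0.54).

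**Figure D2:**
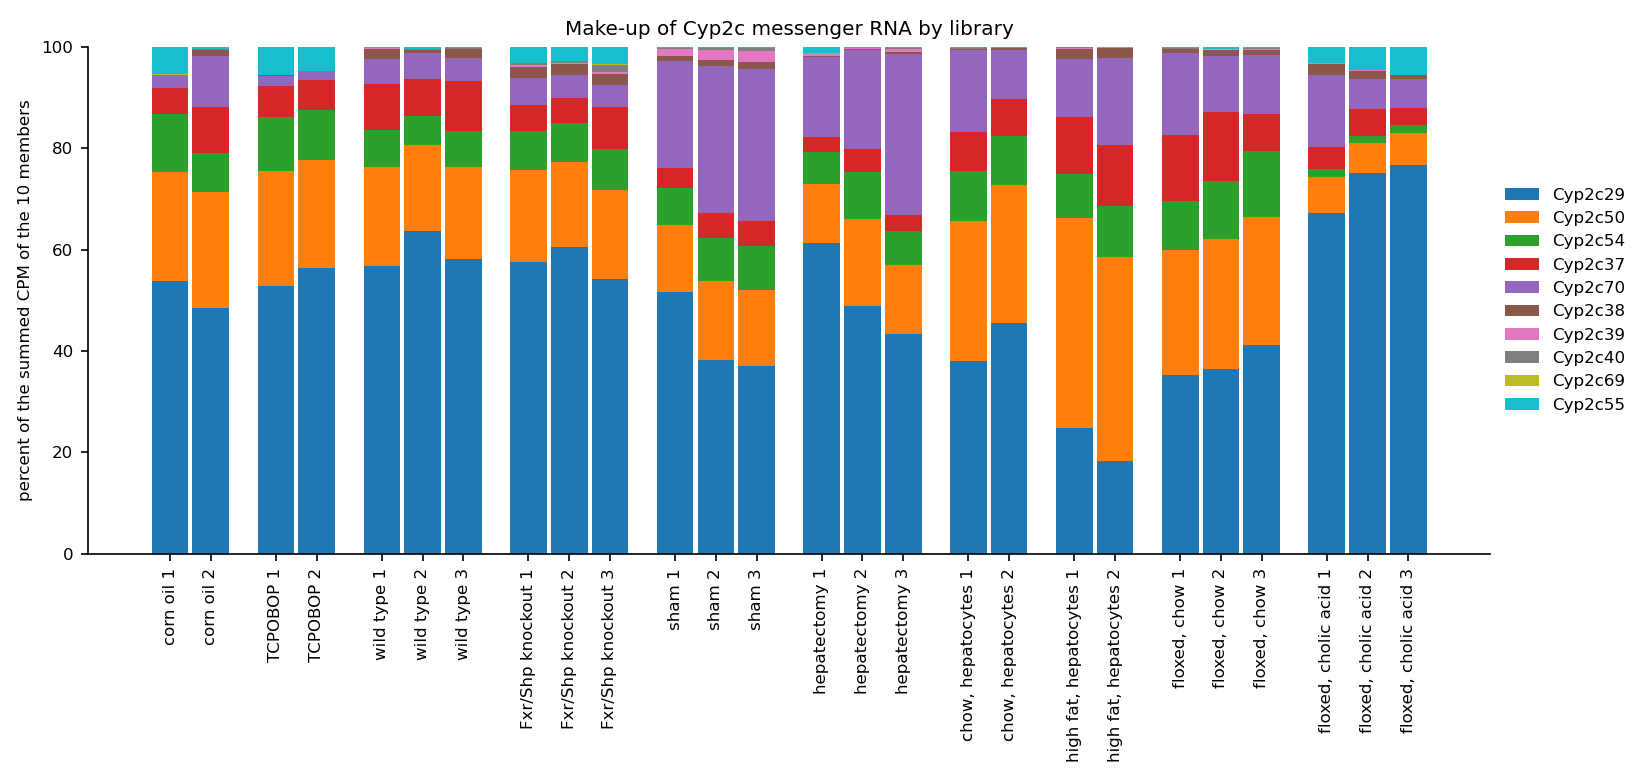
Share of the summed CPM of the 10 Cyp2c members taken by each member in every library, as stacked bars in percent, with libraries ordered by experiment. On cholic acid the Cyp2c29 segment fills 67.2% to 76.7% of the bar, and on the high fat diet 18.2% to 24.8%.

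The first comparison asked how CAR activation by TCPOBOP changed the family, and its answer rested on the library labelled corn oil 1. With all 4 libraries, no member passed edgeR's quasi-likelihood test (adjusted p under 0.05), as no gene of the 12785 tested did (0% higher, 0% lower). At an unadjusted p under 0.05 there were 751 genes, and 2 members among them, Cyp2c40 and Cyp2c69. DESeq2 called 91 genes and 0 members. For Cyp2c29 the corn oil libraries stood at 15520 and 1892 CPM in replicate order, and the TCPOBOP libraries at 15240 and 14810. Cyp2c55, an arachidonic acid hydroxylase known as a CAR and PXR target, was 1568 and 16.6 CPM with corn oil and 1600 and 1218 with TCPOBOP. In both genes the library labelled corn oil 1 sat with the TCPOBOP libraries, as it did in Cyp2c37, Cyp2c50 and Cyp2c54. The fitted log2 changes were 0.78 (SE 0.96) for Cyp2c29 and 0.83 (SE 1.67) for Cyp2c55.

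Without the library labelled corn oil 1, the comparison set 2 TCPOBOP livers against 1 corn oil liver, which was assumed to vary as the TCPOBOP pair did. The omitted library had been singled out for its level of Cyp2b10, a CAR target, and several members sat with TCPOBOP in it. Rises of CAR targets and of these members without it were therefore partly given by that choice. In that fit 5 members rose, against 5.71% of 13190 genes, and 1 fell, against 3.64%. Cyp2c55 rose 83.8-fold (log2 change 6.39, SE 0.27, edgeR adjusted p = 2.905e-05). Among the abundant epoxygenases, Cyp2c54 rose 9.35-fold (SE 0.21 in log2, adjusted p = 0.0001669) from 299 CPM to 3061 and 2600. Cyp2c29 rose 7.84-fold (SE 0.26, adjusted p = 0.0005055). Its level was thus at 14810 CPM or more in both TCPOBOP libraries, above every library of the other experiments. Cyp2c50 rose 6.65-fold (SE 0.23, adjusted p = 0.0004591), from 899 CPM to 6559 and 5569. Cyp2c37 rose 4.71-fold (SE 0.18, adjusted p = 0.0004199), from 355 CPM to 1809 and 1581. Cyp2c38, the neighbour of Cyp2c29 in the cluster, moved the other way. It fell from 45.8 CPM to 16.4 and 18.7 (log2 change -1.40, SE 0.15, adjusted p = 0.001235). Its near copy Cyp2c39 stood at 2.04 CPM and then 2.15 and 2.32 (log2 change 0.11, adjusted p = 0.9167). Cyp2c70, Cyp2c40 and Cyp2c69 did not pass, with log2 changes of 0.33, 1.92 and 1.35. The median log2 change was 2.08 over the members and -0.01 over all genes. Markers of dividing cells rose in this fit, 5 of 5 with a median log2 change of 3.02, while 4 of 6 periportal markers fell, and of 7 tested pericentral markers 4 fell and 1 rose. The dividing cell markers summed to between 4.75 and 77.9 CPM in the corn oil libraries and to 38.96 to 48.3 with TCPOBOP, the periportal ones to 1786 to 2489 and 1534 to 1535, and the pericentral ones to 7468 to 10990 and 10560 to 11520, with none at 0, and their part in the results was not tested. Without the library labelled corn oil 2 instead, only Cyp2c69 passed (log2 change 2.35, adjusted p = 0.04672).

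**Figure D3:**
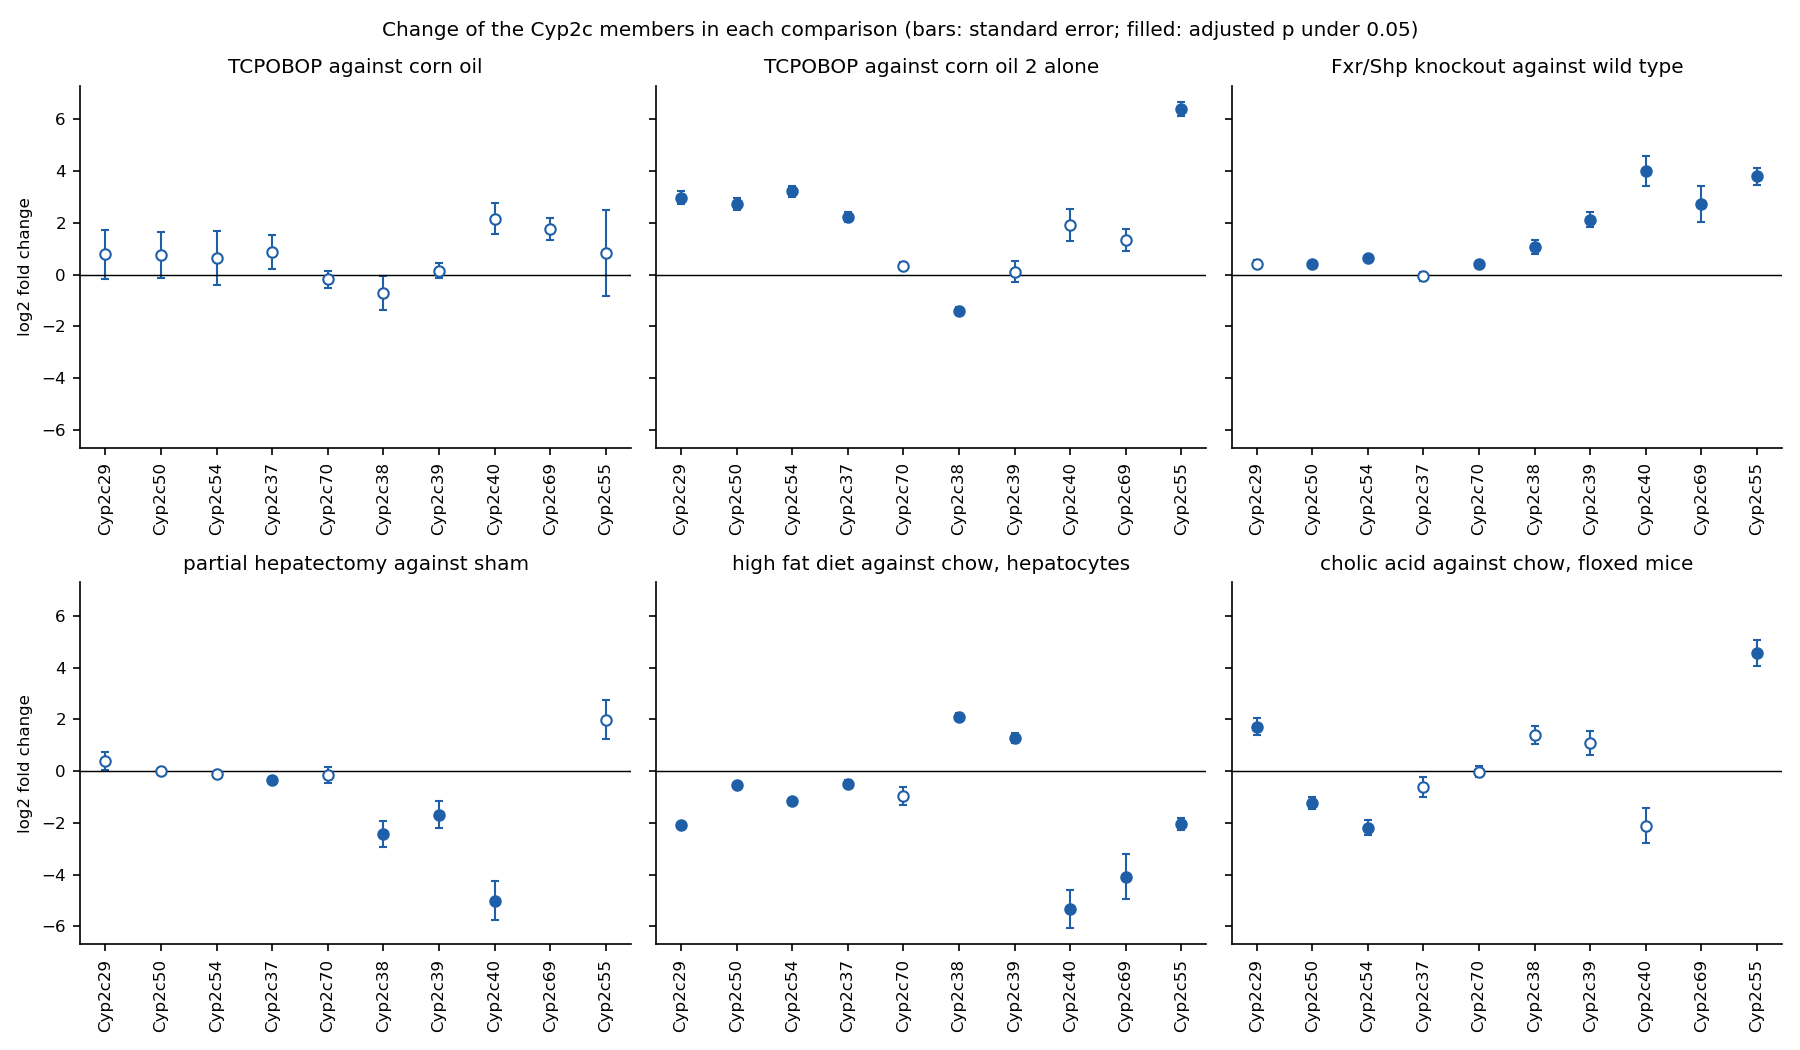
Fitted log2 change of each member in the comparisons, 1 panel each, with bars of 1 standard error, filled points for adjusted p under 0.05 and open points for members that did not pass. Cyp2c69 has no point after hepatectomy and on cholic acid, where it was not tested. The knockout panel has 8 filled points, all above 0, and the high fat panel has 7 filled points below 0 and 2 above.

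Loss of FXR and SHP was followed by higher levels of most of the family. In edgeR's quasi-likelihood test 8 of the 10 members rose, against 21% of the 13473 genes tested, and 0 fell, against 19.4%. One of the 8, Cyp2c69, passed the filter on low counts through the knockout libraries alone, so its direction was given by the filter. The median log2 change was 0.86 over the members and -0.01 over all genes. Low members changed most. Cyp2c55 was 5.48, 15.4 and 6.85 CPM in wild type livers and 128, 126 and 127 in the double knockouts. The groups were far apart and the knockout values nearly level, and the change was 13.9-fold (log2 3.80, SE 0.33, adjusted p = 5.701e-05). Cyp2c40, whose enzyme hydroxylates arachidonic acid, was 1.43, 1.07 and 2.79 CPM in wild type and 19.4, 13.2 and 52.1 in knockout livers. Its fitted rise was 16.2-fold (SE 0.58 in log2, adjusted p = 0.0008948). Its near copy Cyp2c69 was 0.409, 0.119 and 1.74 CPM and then 3.22, 3.01 and 8.65, a 6.66-fold rise (SE 0.70, adjusted p = 0.014). In both genes knockout replicate 3 was the highest, and in neither did the groups overlap. The share of all genes whose groups did not overlap was not counted, here or in the other comparisons.

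The pair Cyp2c38 and Cyp2c39 also rose in the double knockouts. Cyp2c39, an epoxygenase that also hydroxylates retinoic acid, was 3.58, 1.72 and 4.88 CPM in wild type livers and 14.2, 13.4 and 16.7 in knockouts (4.38-fold, SE 0.28 in log2, adjusted p = 0.0005822). Cyp2c38 was 52.6, 21.8 and 57.3 CPM and then 84.9, 99.2 and 89 (2.10-fold, SE 0.29, adjusted p = 0.01717). The abundant members moved little. Cyp2c54 rose 1.57-fold (SE 0.11, adjusted p = 0.001889), from between 188 and 237 CPM to between 309.6 and 352. Cyp2c50 rose 1.32-fold (SE 0.10, adjusted p = 0.01356), from between 541 and 596 CPM to between 685 and 782. Cyp2c70 rose 1.33-fold (SE 0.13, adjusted p = 0.0357), from 140, 169 and 147 CPM to 225, 208 and 168, so that its lowest knockout library lay just under its highest wild type one. Cyp2c29 was 1576, 2106 and 1915 CPM in wild type and 2386, 2809 and 2097 in knockout livers, which overlapped, and its log2 change of 0.39 (SE 0.16) did not pass (adjusted p = 0.07233). Cyp2c37 stood at 249, 240 and 326 CPM and then at 214, 238 and 323, with no difference beyond the spread (log2 change -0.06, SE 0.17, adjusted p = 0.8051).

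Leaving out 1 library at a time left between 5 and 9 members called, beside 3969 to 6024 of all genes. Cyp2c29 passed without knockout 3 (log2 change 0.50, adjusted p = 0.01533), and with all libraries in DESeq2 (0.41, adjusted p = 0.02744). Cyp2c50 lost its call without wild type 1, knockout 1 or knockout 2 (adjusted p between 0.05367 and 0.06844), Cyp2c70 without wild type 1, wild type 3, knockout 1 or knockout 2 (between 0.0978 and 0.1298), Cyp2c38 without knockout 2 (0.05456) and Cyp2c69 without wild type 1 (0.05632). The calls of Cyp2c39, Cyp2c40, Cyp2c54 and Cyp2c55 did not end in any of the 6 fits, though that of Cyp2c54 did in 1 fit of all 26 libraries (log2 change 0.63, adjusted p = 0.2974). Markers of other cells moved in the same livers: 4 of 5 bile duct markers, 4 of 6 stellate cell markers and 4 of 5 markers of dividing cells rose, and 4 of 6 periportal hepatocyte markers fell. Summed bile duct markers were 26.2 to 35.7 CPM in wild type and 54.4 to 127 in knockout livers, stellate markers 52.9 to 88.1 and 128 to 154, dividing cell markers 3.92 to 4.25 and 9.52 to 11.9, and periportal markers 2389 to 2515 and 1437 to 1503. No marker of these lists was at 0 in either group. In bulk RNA fewer cells of a type and less RNA per cell cannot be told apart, and the part of these cells in the results was not tested.

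The cholic acid diet, which raises the bile acid load, was given to floxed mice, and it split the abundant members. In edgeR's test 2 members rose, against 2.27% of 12577 genes, and 2 fell, against 2.5%, while 5 did not pass and Cyp2c69 had too few counts to be tested. Cyp2c55 was 7.08, 16.8 and 9.41 CPM on chow and 117, 349 and 331 on cholic acid. It rose 23.7-fold (log2 change 4.57, SE 0.51, adjusted p = 0.003897). For Cyp2c29 the values were 1136, 1267 and 1488 CPM on chow and 2430, 5837 and 4658 on cholic acid, 3.30-fold higher (SE 0.32 in log2, adjusted p = 0.02188). Neither gene's groups overlapped, though the share of all genes for which this held was not counted. In both genes the first cholic acid library was the lowest of its group.

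The fallers on cholic acid were neighbours in the cluster. Cyp2c54, which epoxidises arachidonic and linoleic acid, was 310.1, 396 and 473 CPM on chow and 53.5, 102 and 103 on cholic acid (4.59-fold lower, log2 change -2.20, SE 0.29, adjusted p = 0.008939). Its near copy Cyp2c50 was 794, 889 and 908 CPM and then 262, 463 and 380.2 (2.36-fold lower, SE 0.23, adjusted p = 0.02107). Neither gene's groups overlapped, which was not counted over all genes either. Cyp2c37, close to both in sequence, was 415, 474 and 260.4 CPM on chow and 155, 413 and 194 on cholic acid, groups that overlapped, and did not pass (log2 change -0.61, SE 0.38, adjusted p = 0.3746). Cyp2c38 stood at 25.02, 35.2 and 35.7 CPM on chow and at 73.9, 134 and 47.4 on cholic acid without passing (log2 change 1.40, SE 0.35, adjusted p = 0.06274). Cyp2c39 was between 2.12 and 5.39 CPM and then between 4.67 and 11.9 (log2 change 1.09, adjusted p = 0.2208). Cyp2c40 was 4.23, 2.85 and 2.73 CPM on chow and 0.353, 1.73 and 0.238 on cholic acid, from counts of 7, 32 and 5 in the cholic acid libraries (log2 change -2.11, SE 0.66, adjusted p = 0.1102). Cyp2c69 had 52 counts in the 3 chow libraries and 11 in the 3 cholic acid libraries, a depth-corrected ratio of 6.62 with a 95% interval of 3.41 to 14.1 that covers counting error only. Cyp2c70, the muricholic acid enzyme, was 521, 389 and 424 CPM on chow and 520.4, 456 and 352 on cholic acid, with no difference beyond the spread (log2 change -0.02, SE 0.20, adjusted p = 0.9686).

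Without the chow library that stood apart, replicate 3, 2 members rose, against 5.55% of 12958 genes, and 3 fell, against 4.83%. One of these was Cyp2c69, which entered the test through the 2 remaining chow libraries alone, so that its direction was given by the filter on low counts and its size is not read. The other calls were the same: Cyp2c55 4.46, Cyp2c29 1.83, Cyp2c54 -2.04 and Cyp2c50 -1.20 in log2. Cyp2c29 missed the threshold without chow 1, chow 2, cholic acid 2 or cholic acid 3 (adjusted p between 0.0657 and 0.09359), with log2 changes of 1.64, 1.70, 1.45 and 1.66 in these fits. Cyp2c50 missed it without chow 1, chow 2, cholic acid 1 or cholic acid 3 (between 0.05345 and 0.08383), with log2 changes of -1.29, -1.22, -1.04 and -1.26. Cyp2c40 passed without cholic acid 2 (log2 change -3.45, adjusted p = 0.03187) and Cyp2c38 without cholic acid 3 (1.70, adjusted p = 0.04755), and both passed in DESeq2 (adjusted p = 0.01856 and 0.002533). Cholic acid 2 was the only cholic acid library in which Cyp2c40 lay above the filter on low counts. Without it Cyp2c40 entered the test through the chow libraries alone. The direction of that call was thus given by the filter, and its size rests on 7 and 5 counts. In DESeq2 too its chow libraries alone sufficed for the filter. Beside these changes, 3 of 7 tested pericentral hepatocyte markers fell in either fit, with a summed level of 13060 to 14970 CPM on chow and 6149 to 8044 on cholic acid. Of 5 markers of dividing cells, 1 rose with all libraries and 5 without chow 3, where their median log2 change was 3.17, and their summed level was 5.62 to 19.5 CPM on chow and 29.4 to 72.5 on cholic acid. Of 6 Kupffer cell markers, 1 rose with all libraries and 5 without chow 3 (median log2 change 1.67), with summed levels of 81.3 to 233 CPM on chow and 201 to 337 on cholic acid. No marker of these lists was at 0, and their part in the results was not tested.

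The change on knockout was then set against the change on cholic acid, both being states of altered bile acid signalling. In a test of the difference between the changes, edgeR called 5 members, against 13.9% of 13935 genes. The rise of Cyp2c55 did not differ beyond its error between them (difference -0.76 in log2, SE 0.62, adjusted p = 0.4588). Cyp2c54 went up in one and down in the other, with a difference of 2.86 (SE 0.33, adjusted p = 0.0002037), and so did Cyp2c50, with a difference of 1.64 (SE 0.25, adjusted p = 0.001348). Cyp2c40 differed by 6.13 (SE 0.92, adjusted p = 0.001117). Its cholic acid side rests on 7, 32 and 5 counts, with 1 of 3 libraries above the filter on low counts, so this size is uncertain. The call for Cyp2c69 rests on 1, 5 and 5 counts on cholic acid, where it had not been testable, and on its entry through the groups where it was high, so no size is read from it. Cyp2c29 rose more on cholic acid, by 1.32 in log2 (knockout minus cholic acid -1.32, SE 0.38, adjusted p = 0.03484), a call that ended in 9 of 12 fits with 1 library left out. Cyp2c37, Cyp2c38, Cyp2c39 and Cyp2c70 did not pass. Without chow replicate 3 of the cholic acid experiment the values were 2.70 for Cyp2c54, 1.60 for Cyp2c50, 6.24 for Cyp2c40, -1.44 for Cyp2c29 and -0.66 for Cyp2c55, each on the same side of the threshold. The median difference was 0.80 over the members and 0.03 over all genes. Diet, fasting, age and floxed alleles differed between the experiments and cannot be told apart from these differences.

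**Figure D4:**
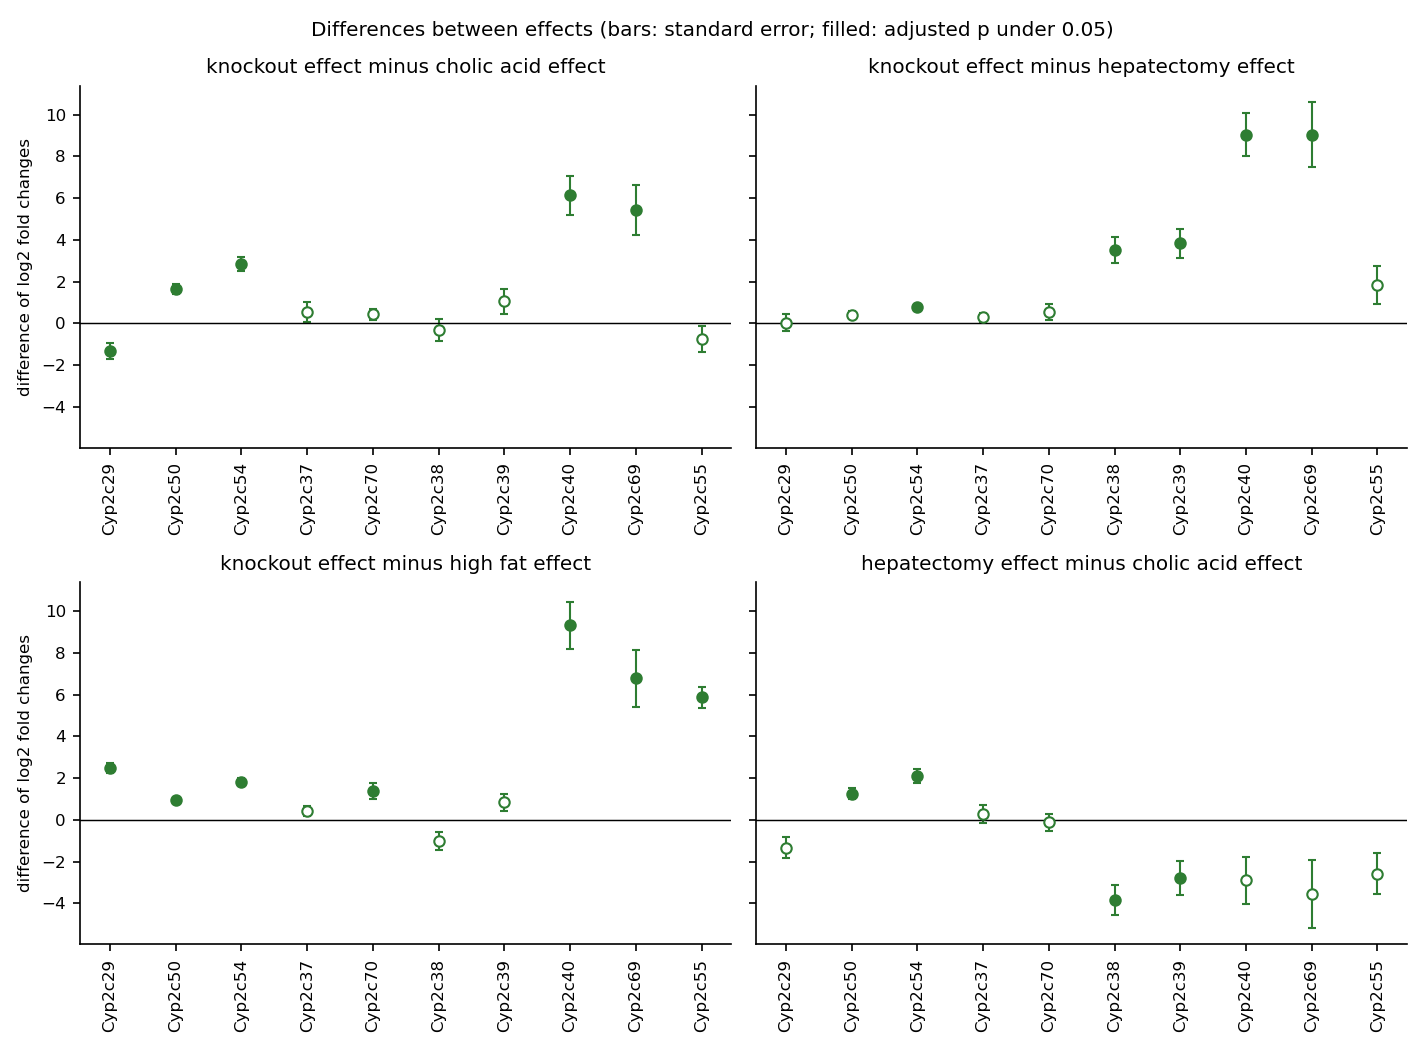
Difference in log2 change between pairs of experiments for each member, with bars of 1 standard error, filled points for adjusted p under 0.05 and open points for members that did not pass. Cyp2c40 lies at 6.13 in knockout minus cholic acid, where Cyp2c55 is open at -0.76, and the sizes for Cyp2c40 and Cyp2c69 rest on groups of a few counts.

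After partial hepatectomy Cyp2c37, Cyp2c38, Cyp2c39 and Cyp2c40 were lower, and the other abundant members differed by no more than their spread. At 48 h these 4 members had fallen in edgeR's test, against 14.3% of 13753 genes, and 0 had risen, against 16.4%. The sham livers were taken at 0 h, so the resection and the time since surgery cannot be told apart. The largest fitted fall was that of Cyp2c40, which was 4.98, 13.3 and 21.2 CPM after sham operation and 0.258, 0.0584 and 0.875 after hepatectomy, from 9, 2 and 32 counts. The fitted change was 32.4-fold (log2 change -5.02, SE 0.75, adjusted p = 0.001995). Its sham libraries alone sufficed for the filter on low counts, with 1 of 3 hepatectomy libraries above it. The direction was thus given by the filter, and the size rests on a few counts. Its copy Cyp2c69 had 104 counts over the 3 sham libraries and 1 count over the 3 hepatectomy libraries, too few to be tested. The depth-corrected ratio was 116, with a 95% interval of 20.4 to 4627 that covers counting error only. Both genes were thus near the edge of detection after hepatectomy.

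The other pair, Cyp2c38 and Cyp2c39, fell as well. Cyp2c38 was 39.96, 39.3 and 44.4 CPM after sham operation and 10.3, 1.81 and 10.96 after hepatectomy (5.37-fold lower, log2 change -2.43, SE 0.51, adjusted p = 0.009053). Cyp2c39, which had its highest mean of all 10 groups in these sham livers, was 63.7, 71.6 and 78.6 CPM and then 28.8, 5.34 and 32.5 (3.22-fold lower, SE 0.52, adjusted p = 0.04183). In both genes the second hepatectomy library was the lowest. Cyp2c37 was 168, 173 and 176 CPM and then 154, 118 and 140, a small fall of 1.26-fold (SE 0.11, adjusted p = 0.04798). Of the members that did not pass, Cyp2c29 stood at 2235, 1354 and 1315 CPM after sham operation and at 3254, 1260 and 1923 after hepatectomy (log2 change 0.39, SE 0.34, adjusted p = 0.422). Cyp2c50 and Cyp2c54 had log2 changes of 0.01 and -0.09, and their groups overlapped. Cyp2c55 was 10.3, 5.82 and 5.08 CPM and then 64.1, 7.03 and 12.98, so that 1 library carried its log2 change of 1.99 (SE 0.75, adjusted p = 0.08107), which was 0.50 without it. Cyp2c70 was 917, 1030 and 1064 CPM and then 842, 503 and 1409 (log2 change -0.13, SE 0.31, adjusted p = 0.7782). The median log2 change was -0.13 over the members tested and 0.01 over all genes.

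Cyp2c37 and Cyp2c39 were near the threshold. Cyp2c37 missed it without sham 1, 2 or 3, or without hepatectomy 2 or 3 (adjusted p between 0.0557 and 0.142), with log2 changes between -0.36 and -0.23 in these fits. Cyp2c39 missed it without sham 1, 2 or 3, or without hepatectomy 1 (between 0.05462 and 0.1183), with log2 changes between -1.92 and -1.61, and in DESeq2 (-1.70, adjusted p = 0.05083). Markers of dividing cells rose in the same livers, 5 of 5, with summed levels of 4.71 to 8.17 CPM after sham operation and 227 to 353 after hepatectomy and none at 0. Periportal markers fell too, 4 of 6, from between 2369 and 2480 CPM in sum to between 1387 and 1446, and the part of either list in these results was not tested. Against the double knockout, edgeR called a different change for 5 members, against 31.5% of 14755 genes: Cyp2c38 by 3.51 in log2 (SE 0.64, adjusted p = 0.001133), Cyp2c39 by 3.83, Cyp2c40 by 9.04, Cyp2c54 by 0.76 and Cyp2c69. The last rests on 1 count after hepatectomy, so no size is given, and the size for Cyp2c40 rests on 9, 2 and 32 counts there. Neither of these genes needed its hepatectomy libraries to pass the filter on low counts, so their calls were partly given by it. Against cholic acid it called 4 members, against 13% of 13985 genes: Cyp2c38 by -3.83 and Cyp2c39 by -2.77, which fell after hepatectomy and did not pass on cholic acid, and Cyp2c50 by 1.25 and Cyp2c54 by 2.11, where the fall was that on cholic acid. The call of Cyp2c39 in the latter test ended in 7 of 12 fits with 1 library left out. With the replicate number as a block within each experiment, which pairs the cholic acid samples, Cyp2c39 missed the threshold (-3.03, adjusted p = 0.05196), and Cyp2c29 (-1.31, adjusted p = 0.04041) and Cyp2c55 (-3.07, adjusted p = 0.01454) passed. Without chow replicate 3 of the cholic acid experiment the values were -3.92 for Cyp2c38, -3.30 for Cyp2c39, 1.21 for Cyp2c50 and 1.95 for Cyp2c54, all still called. The median differences were 1.301 and -1.96 over the members, and 0.02 and 0.04 over all genes. Strain and surgery differed between these experiments and cannot be told apart.

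In hepatocytes the high fat diet changed 9 of the 10 members. In edgeR's test 7 fell, against 11.1% of 13892 genes, and 2 rose, against 12.9%. Cyp2c29 was 1259 and 1465 CPM on chow and 352 and 303 on the high fat diet, 4.25-fold lower (log2 change -2.09, SE 0.12, adjusted p = 0.001091). Its cluster neighbours went the other way. Cyp2c38 was 6.25 and 7.77 CPM on chow and 29.1 and 32.4 on the high fat diet (4.29-fold higher, SE 0.14, adjusted p = 0.001382), and Cyp2c39 was 1.27 and 1.28 and then 2.98 and 3.41 (2.45-fold higher, SE 0.19, adjusted p = 0.01068). In none of these 3 genes did the libraries of the diets overlap. With 2 libraries per diet this is often met without a change, and its share over all genes was not counted.

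Of the copies further along the cluster, Cyp2c54 fell 2.25-fold on the high fat diet (SE 0.15 in log2, adjusted p = 0.007349), from 329 and 312 CPM to 125 and 166. Cyp2c50 fell 1.45-fold (SE 0.10, adjusted p = 0.0191), from 914 and 875 CPM to 586 and 671. Cyp2c37 fell 1.39-fold (SE 0.13, adjusted p = 0.04925), from 253 and 235 CPM to 157 and 200.1. In all 3 genes both high fat libraries lay below both chow libraries, which says little with so few libraries. Cyp2c55 was 4.43 and 4.16 CPM and then 1.25 and 0.849 (4.17-fold lower, SE 0.24, adjusted p = 0.006034), a fall where cholic acid and the double knockout gave rises. Cyp2c40 was 6.82 and 2.29 CPM on chow and 0.166 and 0.0617 on the high fat diet, from 11 and 4 counts (39.9-fold lower, log2 change -5.32, SE 0.74, adjusted p = 0.008957). Cyp2c69 was 1.45 and 0.399 CPM and then 0.0753 and 0.0309, from 5 and 2 counts (16.9-fold lower, SE 0.86, adjusted p = 0.02425). Cyp2c69 passed the filter on low counts through the chow libraries alone. Cyp2c40 had 1 of 2 high fat libraries above it, but its chow libraries alone sufficed. The direction of both genes was thus given by the filter, and their sizes rest on a few counts. In these low genes the first chow library was the higher of its pair. Cyp2c70 was 538 and 314 CPM on chow and 163 and 285 on the high fat diet, and its log2 change of -0.96 (SE 0.34) did not pass (adjusted p = 0.09074). The median log2 change was -1.06 over the members and 0.01 over all genes.

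Leaving out 1 of the 4 libraries left between 6 and 9 members called. Cyp2c37 lost its call without chow 1, chow 2 or high fat 1 (adjusted p between 0.05412 and 0.1567), Cyp2c50 without high fat 1 (0.07416) and Cyp2c69 without either high fat library (0.0674 and 0.07566), and Cyp2c70 passed without chow 2 or high fat 2 (0.0199 and 0.03796). In 1 fit of all 26 libraries, Cyp2c37, Cyp2c39, Cyp2c50, Cyp2c54 and Cyp2c55 missed the threshold (adjusted p between 0.1682 and 0.581). Beside these falls, 7 of 8 pericentral hepatocyte markers fell and 4 of 6 periportal ones rose, with summed pericentral levels of 15090 to 15910 CPM on chow and 9785 to 10690 on the high fat diet, and periportal ones of 3171 to 3544 and 4185 to 4855. All 5 endothelial, 5 of 6 Kupffer cell and 5 of 6 stellate cell markers rose, endothelial ones from between 41.1 and 42.3 CPM in sum to between 99.0 and 102, Kupffer cell ones from between 37.7 and 39.7 to between 67.99 and 74.4, and stellate ones from between 4.51 and 8.53 to between 22.5 and 24.6. The bile duct markers Krt19 and Epcam and the leukocyte markers Cd79a and Nkg7 were at 0 in the chow hepatocytes. Their part in the results was not tested. Set against the double knockout, edgeR called a difference for 7 members, against 16.1% of 14280 genes. The differences were 5.87 for Cyp2c55 (SE 0.50, adjusted p = 3.768e-05), 2.49 for Cyp2c29, 1.83 for Cyp2c54, 0.94 for Cyp2c50, 1.38 for Cyp2c70 and 9.32 for Cyp2c40, and the call for Cyp2c69 rests on 5 and 2 counts on the high fat diet. The size for Cyp2c40 rests on 11 and 4 counts on that diet. Neither gene needed its high fat libraries to pass the filter on low counts, so these calls were partly given by it. Cyp2c70 lost its call for a difference in 6 of 10 fits with 1 library left out. Cyp2c37, Cyp2c38 and Cyp2c39 did not pass, and the median difference was 1.61 over the members and -0.04 over all genes. Tissue, age and fasting differed between these experiments and cannot be told apart from the differences.

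**Figure D5:**
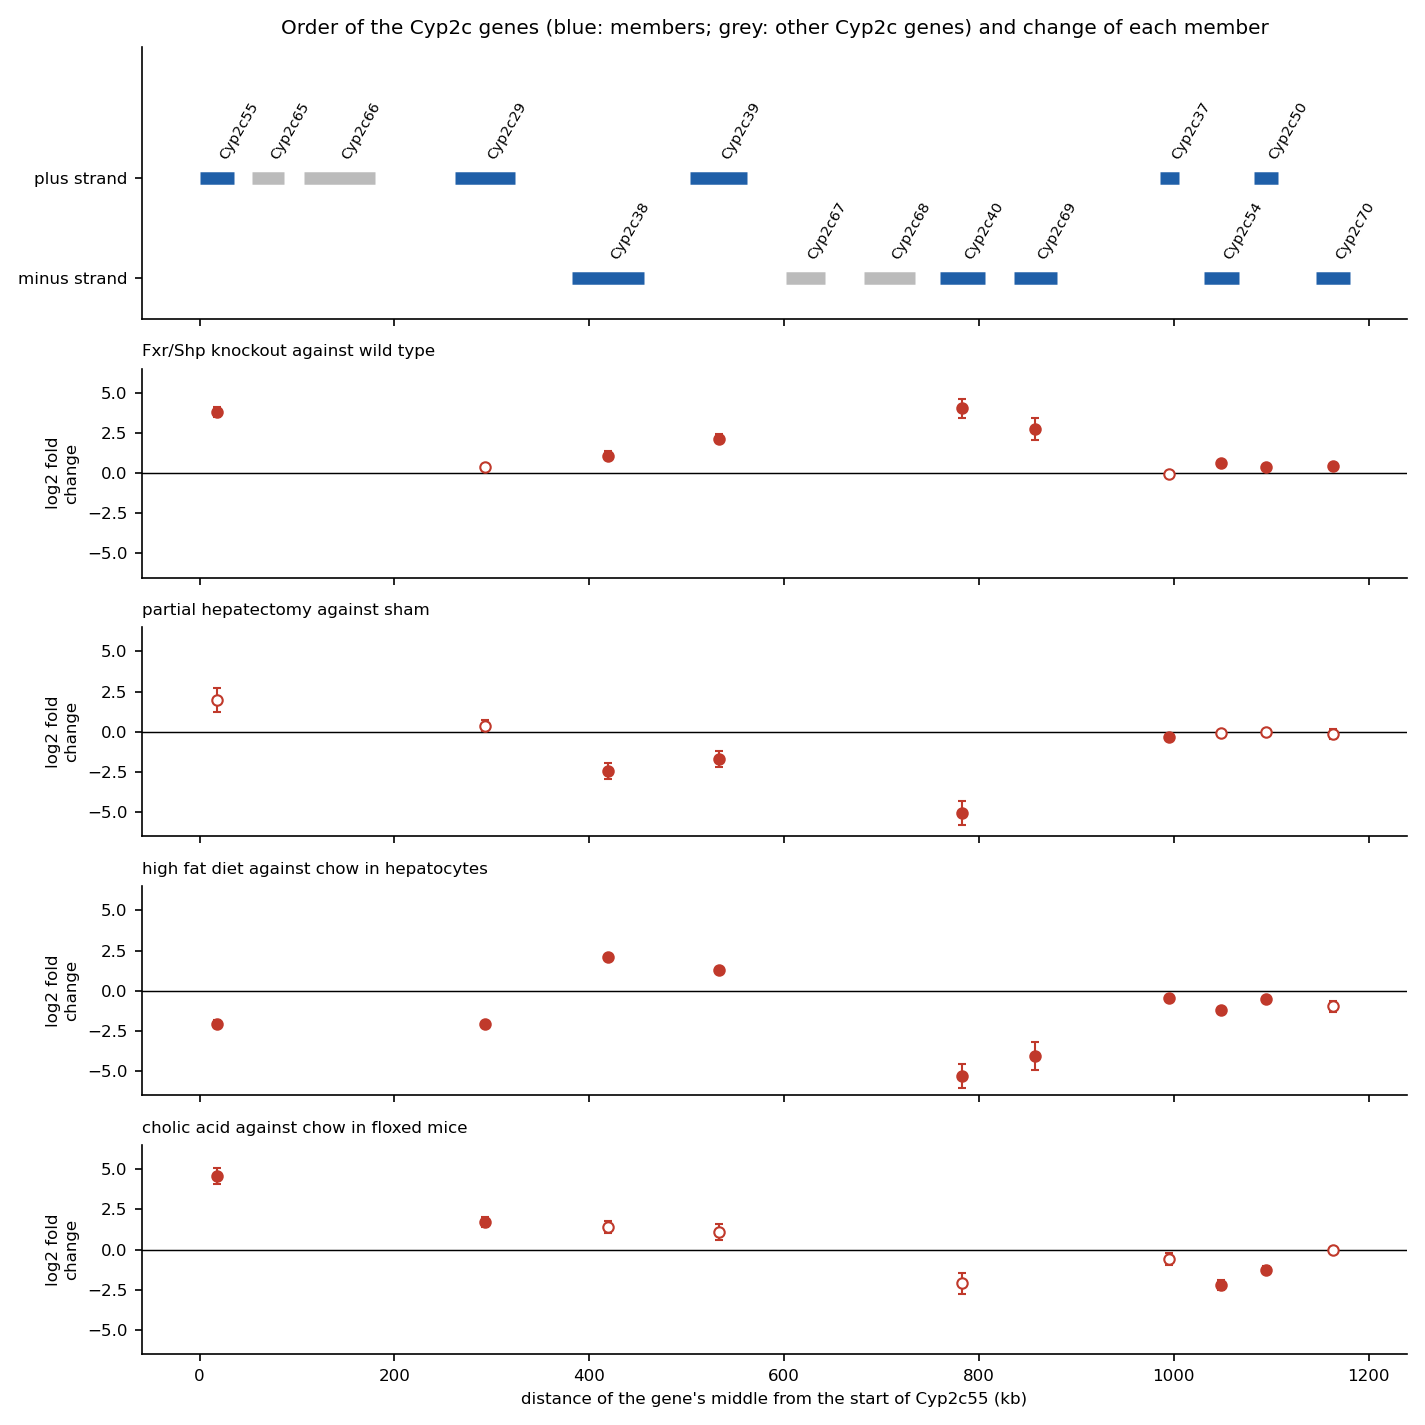
Map of the Cyp2c cluster by strand (blue members, grey other Cyp2c genes), above the log2 change of each member against the distance of its middle from the start of Cyp2c55 in kb, 1 panel for each of 4 comparisons, with bars of 1 standard error and open points for members that did not pass. On the high fat diet Cyp2c29 lies at -2.09 and its neighbours Cyp2c38 and Cyp2c39 at 2.10 and 1.29.

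How alike the members were was measured as the root mean square difference of their log2 CPM over all 26 libraries, each gene centred on the control mean of its experiment. The closest pairs were Cyp2c37 and Cyp2c50 at 0.37, Cyp2c50 and Cyp2c54 at 0.41, Cyp2c38 and Cyp2c39 at 0.62 and Cyp2c37 and Cyp2c70 at 0.63. Cyp2c40 and Cyp2c69 differed by 1.01. Without the library labelled corn oil 1, a setting added after the values were seen, the same 4 pairs were closest, at 0.39, 0.43, 0.70 and 0.73. By this measure genes that change little come out as alike. In that setting Cyp2c37 itself deviated from its controls by 0.7565, about its difference from Cyp2c70. Cyp2c40 deviated by 2.945, well above its difference of 1.03 from Cyp2c69. The libraries share controls and depth, and the near copies share reads, so the values describe the table. By the same measure over 10093 genes, the genes outside the family nearest to Cyp2c29 were Ugt1a9, a glucuronosyltransferase, at 0.58, the carboxylesterase Ces2a at 0.62 and Rbbp8 at 0.66. Nearest to Cyp2c55 were the glutathione transferase Gstm3 at 0.98, Cyp2b10 at 1.28 and Gstm2 at 1.42, while Cyp2c55 itself deviated from its controls by 2.58. Without the library labelled corn oil 1, Ces2a came before Ugt1a9 for Cyp2c29, and Akr1b7 took the place of Gstm2 for Cyp2c55. Cyp2c70, which deviated by 0.44, had Nrn1 at 0.33, Pxmp4 at 0.35 and Zfp157 at 0.36 nearest to it, and without that library Zfp157, Nrn1 and Ccdc186.

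The other genes of the pathway were described beside the members. Of 6 CAR and PXR targets outside the family, 5 rose in the double knockouts and 4 on cholic acid, 3 fell on the high fat diet and 2 after hepatectomy. With TCPOBOP 0 of the 6 passed with all libraries. Without the library labelled corn oil 1 their median log2 change was 2.45. That library had been singled out for its level of Cyp2b10, 1 of the 6, so this rise was partly given by that choice. Gstm3 was the one nearest to Cyp2c55, and its log2 changes were 4.17 in the double knockouts, 6.22 on cholic acid and -0.83 on the high fat diet, beside 3.80, 4.57 and -2.06 for Cyp2c55. Of 5 partners of P450 enzymes, of which Por also stands in the first list, 3 rose in the double knockouts, 1 fell on cholic acid and 2 fell after hepatectomy, and none of the 5 passed on the high fat diet. With TCPOBOP 0 of the 5 passed with all libraries, and without the library labelled corn oil 1 3 rose and 1 fell. The cholic acid counts of these lists, and of the epoxygenase and bile acid synthesis lists, were the same without chow replicate 3. In the epoxygenase pathway 2 of 6 genes rose and 4 fell in the double knockouts, and 2 rose and 3 fell on cholic acid. Ephx2, the soluble epoxide hydrolase that breaks down the products of these enzymes, changed by -1.03 in log2 in the double knockouts (adjusted p = 0.001088), -0.86 on cholic acid (adjusted p = 0.02686) and -0.63 after hepatectomy (adjusted p = 0.001122). Nr1i3, the gene of CAR, fell by 1.04 in log2 in the double knockouts (adjusted p = 0.0003696) and did not pass on cholic acid (-0.22, adjusted p = 0.6612). Of 4 bile acid synthesis genes, 3 fell on cholic acid, 2 on the high fat diet and 2 after hepatectomy, while 1 rose and 2 fell in the double knockouts, and Cyp2c70 passed only in the last. Of the 5 other Cyp2c genes of the annotation, Cyp2c23, an epoxygenase gene outside the cluster, rose in the double knockouts (log2 change 0.67, adjusted p = 0.001109), Cyp2c68 fell after hepatectomy (-0.84, adjusted p = 0.04491), and Cyp2c67 fell on the high fat diet (-1.45, adjusted p = 0.01967) and on cholic acid (-1.23, adjusted p = 0.01342). Without chow replicate 3 Cyp2c23 fell as well on cholic acid (-0.73, adjusted p = 0.02239).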

How the data were processed

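RNA from flash-frozen liver or hepatocytes was made into 26 libraries with a stranded mRNA kit, per the labels' protocols. The deposited values were raw read counts per gene, with 5 summary lines that name no gene and were left out of library sizes. The submitters' processing notes name bcl2fastq 2.17.1.14, Trimmomatic, STAR 2.4.2a, Picard 1.119, HTSeq and GRCm38/mm10. The strand setting of the counting and the read length were not given in the sources used here.

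From these counts, each experiment was fitted on its own in edgeR 4.0.16 (limma 3.58.1, R 4.3.3), with filterByExpr (minimum count 10), TMM scaling, the quasi-likelihood F test and Benjamini-Hochberg adjustment over all genes tested, called at adjusted p under 0.05. The standard error of a log2 change was taken from its F statistic. Differences between 2 experiments were contrasts in 1 fit over their 4 groups. The scripts were checked on simulated counts. CPM used TMM factors over all 26 libraries, with a prior count of 1 on the log2 scale for likeness between genes, and a prior count of 5 named the same nearest genes. A library's floor was 3 counts. Counting intervals cover counting error only.

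All 10 members are named with their values. The nearest 3 genes outside the family were named for Cyp2c29, Cyp2c55 and Cyp2c70 by the smallest root mean square difference. The members, gene lists and cell markers were chosen with earlier results of these data known. Lists are described by counts and medians, with no test. No 2 replicate libraries held identical values or agreed within sampling noise.

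Replicate numbers were shared between groups in the labels. In the cholic acid experiment same-numbered libraries deviated together in all 3 pairs (correlations 0.131, 0.151 and 0.101 over 12577 genes), so the numbers were taken to pair the samples. In no other experiment did all pairs exceed 0.1. The TCPOBOP and high fat experiments came close, with same-numbered libraries at 0.0976 and 0.0949, so this cutoff does not settle whether their samples were paired. Hepatectomy 3 and sham 1, which do not share a number, reached 0.1025, and knockout 1 and wild type 1 stood at -0.1626. Pairing on cholic acid is therefore an assumption. The main cholic acid calls came from the fit without the block. Exon lengths and positions came from GENCODE M21 (GRCm38) and promoters from RefSeq (GRCm38.p6). Alternatives were DESeq2 1.42.0, its size factors, other filters, 1 fit of all 26 libraries, the replicate number as a block and each library left out.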

Additional observations from a re-analysis of the deposited data

How the results depend on the processing

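With the replicate number as a block, the paired cholic acid fit and knockout minus cholic acid changed no call of a member. Hepatectomy minus cholic acid went from 4 to 5 members, beside 1820 and 1497 of all genes called. On cholic acid Cyp2c29 was 1.64 in log2 (edgeR adjusted p = 0.03099), Cyp2c50 -1.28, Cyp2c54 -2.24 and Cyp2c55 4.51. Elsewhere the numbers were not taken to pair the samples. There the block left 9 members called in the knockout, beside 4763 genes, and 3 after hepatectomy, beside 3664 genes.

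One fit of all 26 libraries called 4 members in the knockout (without Cyp2c38, Cyp2c50, Cyp2c54 and Cyp2c70), 4 on the high fat diet (1735 genes) and 4 in knockout minus high fat (1282 genes). It called 9 genes for TCPOBOP, 3132 for cholic acid, 2991 for knockout minus cholic acid and 2749 for hepatectomy minus cholic acid. DESeq2 called 91 genes for TCPOBOP and 1445 for cholic acid. With no filter on low counts, 7 members (955 genes) passed on cholic acid and 7 in hepatectomy minus cholic acid. The cause of these shifts was not tested. Member counts with no count of genes beside them are not read as a result about the family.

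With 1 library left out, TCPOBOP gave 0 to 6 members and 0 to 1233 genes called, the knockout 5 to 9 members, hepatectomy 2 to 5 members and 2554 to 4217 genes, the high fat diet 6 to 9 members and 1141 to 2644 genes, and cholic acid 2 to 5 members and 189 to 1345 genes. Knockout minus high fat gave 6 to 8 members and 1269 to 2768 genes, and hepatectomy minus cholic acid 3 to 5 members and 1089 to 2495 genes.

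Direction changed only for changes that had not passed. In TCPOBOP with 1 library left out, the log2 change ranged from -0.0462 to 2.97 for Cyp2c29, -1.40 to 0.65 for Cyp2c38, -0.0427 to 2.73 for Cyp2c50, -0.23 to 3.23 for Cyp2c54, -0.16 to 6.39 for Cyp2c55 and -0.55 to 0.33 for Cyp2c70. The same held for Cyp2c37 in the knockout (-0.24 to 0.0794), Cyp2c70 on cholic acid (-0.15 to 0.12), and Cyp2c29 (-0.0439 to 0.68), Cyp2c50 (-0.0794 to 0.14), Cyp2c54 (-0.20 to 0.0228) and Cyp2c70 (-0.58 to 0.16) after hepatectomy. It also held for Cyp2c38 in knockout minus cholic acid (-0.64 to 0.16), Cyp2c29 in knockout minus hepatectomy (-0.27 to 0.45) and Cyp2c70 in hepatectomy minus cholic acid (-0.56 to 0.18). After hepatectomy Cyp2c50 was -0.0002367 with DESeq2 size factors, -0.000235 in DESeq2 and -0.005958 with the replicate block. In knockout minus hepatectomy Cyp2c29 was -0.007966 with no filter and -0.01093 in the fit of all libraries.

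Low counts limited Cyp2c40 and Cyp2c69, whose treated libraries held 0 to 32 counts after hepatectomy, on the high fat diet and on cholic acid.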
